A study of Mus musculus with 12 samples.

Results

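The genes described here build the cornified envelope, the protein shell of the dead outer layers of the epidermis, and were followed by RNA sequencing in mouse back skin. The set was a list of 40 genes matched to the deposited count table by Entrez Gene ID. It comprised 14 Lce1 and 6 Lce3 genes (late cornified envelope genes), 4 genes of the filaggrin type (S100-fused genes), 6 other envelope precursors, 3 transglutaminases, 3 genes for plakins and a corneodesmosome protein, 2 proteases and 2 secreted differentiation proteins. The small proline-rich genes were left out of the list. Of the 40 genes, 38 were among the 23469 gene IDs of the table. Lce1j and Flg, the filaggrin gene itself, were not analysed here. After a filter on low counts 35 of the 38 were tested, and Lce3a, Lce3b and Lce3d were not.

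Keratinocytes leave the basal layer, move outward and replace their plasma membrane with a shell of cross-linked protein. Involucrin, envoplakin and periplakin lay down a scaffold under the membrane, loricrin and the late cornified envelope proteins reinforce it, and transglutaminases join them through glutamine and lysine residues. Filaggrin-type proteins are made as long repeat proteins, bind keratin filaments and are cut by proteases, and their breakdown products hold water in the outermost layer.

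Skin came from BALB/C mice, wild type or carrying an altered Serpinb3a locus, with 3 libraries in each of 4 groups. The back was shaved on day 0, a gauze patch with 200 µg of ASP, an Aspergillus fumigatus extract, was taped on at day 1 and taken off at day 4, and the patched skin was collected on day 5. The other arm is labelled SAL, which the labels do not expand, and the labels used here give no age. The groups are called wild-type SAL, wild-type ASP, labelled-null SAL and labelled-null ASP. The labels name the second genotype as SCCA2KO, as Serpinb3a-transgenic and as Serpinb3a null. Serpinb3a was counted 8, 7 and 4 times in the wild-type SAL libraries and 8, 15 and 2 times in the wild-type ASP libraries. It was counted 40, 72 and 76 times in labelled-null SAL and 24, 23 and 18 times in labelled-null ASP, so it was higher in all 6 libraries labelled null, against the label of a null. The part of the gene that was altered is not given in the labels, so these counts do not check the allele. The labels do not say whether the replicates were separate animals, and p-values therefore measure the spread between these libraries.

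Libraries held between 6705396 and 12933436 counts, of which 0.683% to 1.88% fell on the envelope genes. Of the listed epidermal keratins, all but Krt2 were counted in every library. The sum of Krt5 and Krt14, keratins of the basal layer, ran from 778 to 3649 CPM (counts per 1000000, scaled by the TMM method), and that of Krt1 and Krt10, keratins of the layers above, from 2295 to 9200. The 6 listed skeletal muscle genes summed to 18236 to 92568 CPM. The median Spearman correlation with the other libraries was lowest in wild-type ASP replicates 3 (0.894) and 2 (0.902) and in replicate 1 of labelled-null SAL (0.899). In bulk skin, fewer keratinocytes and less RNA per keratinocyte cannot be told apart.

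Of the 40 listed genes, 28 lie within 1.32 Mb of chromosome 3 (GRCm38, chr3:92080271-93399442), the epidermal differentiation complex. RefSeq (GRCm38.p6) gave a promoter window for 34 of the 40 genes. The 130 bases before the annotated start are printed below for genes on which the later results turn, 5′ to 3′ along the gene. Capitals mark 2 motifs, both searched in the 250 bases before to 50 after the start. One is a box of 6 letters, NATAAA with any letter first, on the gene's strand whose first letter lies 40 to 20 bases before the start, the usual place of a TATA box. The other is TGANTCA with any letter at N, on either strand, a wider pattern than the AP-1 site, which has G or C there.
Lce1b (chr3:92656927-92657056, minus strand): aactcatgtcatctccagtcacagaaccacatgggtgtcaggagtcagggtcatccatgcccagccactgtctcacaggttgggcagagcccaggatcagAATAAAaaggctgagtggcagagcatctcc
Lce1e (chr3:92709075-92709204, minus strand): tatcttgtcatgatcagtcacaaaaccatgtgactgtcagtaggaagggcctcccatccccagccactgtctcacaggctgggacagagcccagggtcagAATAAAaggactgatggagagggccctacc
Lce1g (chr3:92752339-92752468, minus strand): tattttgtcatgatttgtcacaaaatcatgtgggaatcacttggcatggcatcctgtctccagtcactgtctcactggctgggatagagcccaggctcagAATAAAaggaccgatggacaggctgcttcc
Lce1h (chr3:92765066-92765195, minus strand): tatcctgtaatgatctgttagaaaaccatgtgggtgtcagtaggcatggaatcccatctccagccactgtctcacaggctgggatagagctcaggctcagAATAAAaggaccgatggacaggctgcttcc
Lce1m (chr3:93019062-93019191, minus strand): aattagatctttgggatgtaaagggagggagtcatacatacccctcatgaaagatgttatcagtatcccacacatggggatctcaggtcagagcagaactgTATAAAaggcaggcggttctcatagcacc
Lce3c (chr3:92944356-92944485, plus strand): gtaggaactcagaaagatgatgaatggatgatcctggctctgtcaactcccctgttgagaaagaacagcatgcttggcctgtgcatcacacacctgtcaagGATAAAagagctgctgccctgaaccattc
Lce3f (chr3:92992087-92992216, plus strand): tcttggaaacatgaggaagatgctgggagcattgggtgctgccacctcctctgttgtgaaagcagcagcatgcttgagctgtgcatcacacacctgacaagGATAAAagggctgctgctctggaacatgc
Lor (chr3:92083143-92083272, minus strand): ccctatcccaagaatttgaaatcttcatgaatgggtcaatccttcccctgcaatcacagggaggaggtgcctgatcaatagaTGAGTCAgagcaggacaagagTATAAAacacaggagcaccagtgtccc
Ivl (chr3:92573736-92573865, minus strand): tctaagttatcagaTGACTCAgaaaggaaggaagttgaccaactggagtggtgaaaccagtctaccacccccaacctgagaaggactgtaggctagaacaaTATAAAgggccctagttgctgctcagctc
Flg2 (chr3:93197143-93197272, plus strand): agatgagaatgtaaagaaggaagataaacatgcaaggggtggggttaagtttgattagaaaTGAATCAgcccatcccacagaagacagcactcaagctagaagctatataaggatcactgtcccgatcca
Hrnr (chr3:93319619-93319748, plus strand): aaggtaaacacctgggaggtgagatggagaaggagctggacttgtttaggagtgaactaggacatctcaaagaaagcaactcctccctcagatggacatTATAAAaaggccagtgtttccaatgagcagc
Krtdap (chr7:30787775-30787904, plus strand): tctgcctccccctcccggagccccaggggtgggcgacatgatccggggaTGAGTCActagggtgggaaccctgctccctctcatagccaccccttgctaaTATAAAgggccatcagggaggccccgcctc
The windows of Lce1e, Lce1g and Lce1h matched each other at 80% to 86.9% of the 130 positions without gaps, while Lce1b matched these 3 at 38.5% to 40% and Lce1m matched them at 25.4% to 27.7%. Of all 78 pairs of Lce1 windows 57 matched at under 50% of positions, the lowest being Lce1k with Lce1m at 16.9%. Without gaps, a base inserted or lost lowers the match of all letters beyond it, so low values do not show unlike sequence. Lce1b and Lce1e, for example, hold the run ACTGTCTCAC named below at different positions. The first letter of the box differs between the families. The box was found in 12 of 13 Lce1 promoters (92.3%) and 5 of 6 Lce3 promoters (83.3%), against 5.03% of the 27025 genes with a window. In 9 of the 13 Lce1 promoters it reads AATAAA, and in all 5 Lce3 promoters that have it GATAAA, which 1.16% and 0.651% of all genes carry there. Lce1d and Lce1m have TATAAA instead, as do 6 members outside both families (Hrnr, Ivl, Krtdap, Lor, Rptn and Tgm3), against 2.41% of all genes. The box was chosen after the sequences had been seen, and some Lce1 windows resemble each other in sequence, so these shares are a description. The longest run of letters found in at least 9 Lce1 promoters was ACTGTCTCAC, 53 to 65 bases before the start, which 0.17% of all genes hold in the window on either strand.

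Matches to TGANTCA lay outside the Lce clusters. TGANTCA was found in 7 of the 34 promoters (20.6%), those of Lor, Ivl, Flg, Flg2, Rptn, Sbsn and Krtdap, against 8.97% of all genes. It was found in 0 of 13 Lce1 and 0 of 6 Lce3 windows. The matches begin 48 to 119 bases before the start, except a second match in Sbsn at 6 bases. The middle letter is G or C, as in the AP-1 site, in Lor, Ivl, Krtdap and the second match of Sbsn. It is A or T in Flg, Flg2, Rptn and the first match of Sbsn. The share of all genes with G or C there was not counted. CACCC, letters bound by KLF factors, was found on either strand in 61.8% of the promoters and 59.8% of all genes.

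Levels were compared between genes per kilobase of the longest annotated transcript. The level of a gene read mainly from a shorter transcript is understated by this choice. Krtdap, a small secreted protein of differentiating keratinocytes, had the highest mean at 1463 CPM per kb, with single libraries from 869 to 3613. Lce1b followed at 608 (342 to 947), and Lce1a1, Lce1c, Lce1d, Hrnr, Lce1e and Sbsn lay between 295 and 245. The ranges of these 6 overlap, so their order is not set beyond the spread of the libraries. Lor stood at 219 CPM per kb and Flg2 at 199. The value of Flg2 rests on a length of 20803 bases, the longest of its 2 transcripts, so its place in the order is uncertain. The transglutaminases lay between 7.18 and 9.54, and the lowest tested members were Rptn (4.12), Lce3f (2.23) and Lce3e (1.75). The range of Lce1b, the highest Lce gene, does not overlap that of any tested Lce3 gene.

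**Figure D1:**
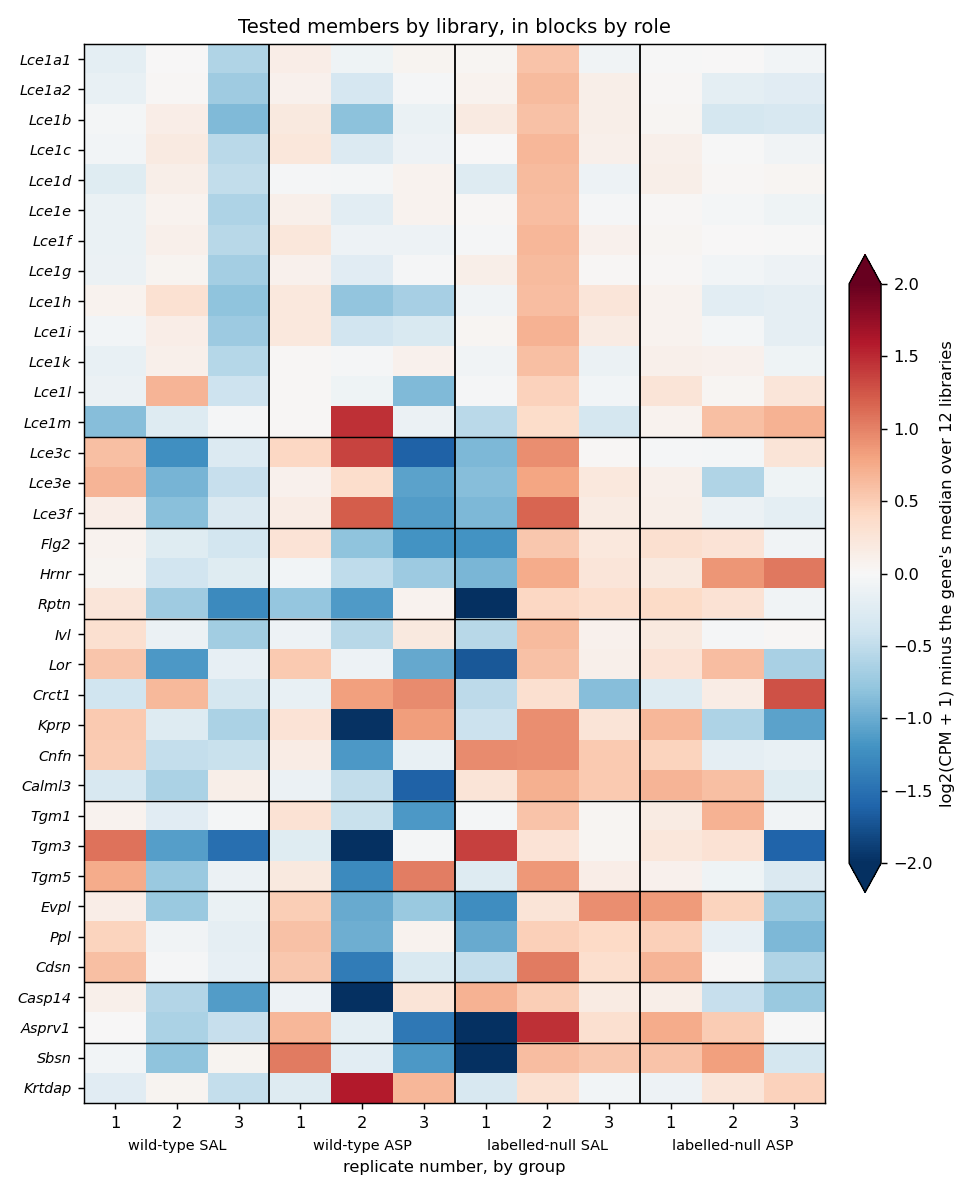
Each cell gives log2(CPM + 1) of 1 of the 35 tested genes in 1 of 12 libraries, minus that gene's median over the libraries, with genes in blocks by role from Lce1 at the top to the secreted proteins at the bottom. The Lce1 block other than Lce1m is highest in labelled-null SAL replicate 2 and lowest in wild-type SAL replicate 3, and wild-type ASP replicate 2 shows high Krtdap and Lce1m beside low Kprp, Casp14 and Tgm3.

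The Lce1 genes varied together from library to library. Each encodes a small envelope protein rich in cysteine and glycine. Lce1b, the Lce1 gene with the highest mean count, stood at 396, 446 and 221 CPM in wild-type SAL and at 467, 231 and 372 in wild-type ASP. The labelled-null libraries gave 464, 613 and 444 under SAL and 420.0, 320 and 325 under ASP. Labelled-null SAL replicate 2 is the highest library and wild-type SAL replicate 3 the lowest, and the wild-type groups overlap with each other and with labelled-null ASP. Lce1a1 gave 180, 209 and 136 CPM in wild-type SAL, 226, 194 and 215 in wild-type ASP, 213, 308 and 198 in labelled-null SAL, and 207, 208 and 199.5 in labelled-null ASP. The same library was the highest for 11 of the 12 Lce1 genes other than Lce1m, and wild-type SAL replicate 3 the lowest for 11 of 12. The exception in both cases was Lce1l. Among these 12 genes the 66 pairwise Pearson correlations of log2 CPM over the 12 libraries had a median of 0.891, against 0.36 for all 595 pairs of tested members. The closest pair was Lce1e and Lce1g at 0.989. Lce1a2 gave 75.4, 84.8 and 50.7 CPM in wild-type SAL, 89.2, 65.999 and 82.7 in wild-type ASP, 88.2, 129.8 and 91.0 in labelled-null SAL, and 85.4, 73.2 and 71.2 in labelled-null ASP. For Lce1a2 the labelled-null SAL libraries lie above wild-type SAL and labelled-null ASP without overlap, and the lowest of them lies just below the highest of wild-type ASP.

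These correlations are not independent of sequence. Between 9.12% and 25.4% of the 50-base stretches of an Lce1 transcript occur in another listed gene, Lce1m excepted, and reads from such stretches could have been placed in either copy. Levels of single Lce1 genes are uncertain to that extent. Their sum does not depend on how reads were split among the counted copies, provided that each read was counted once. The counting program is not given, so reads left out or counted in several copies may still alter the sum. Lce1j, not analysed here, shares 21.2% of its stretches with listed genes (12.95% with Lce1g), and reads split with it are not covered by the sum. The 12 Lce1 genes other than Lce1m summed to 1642, 1928 and 1117 CPM in wild-type SAL and 1957, 1422 and 1681 in wild-type ASP. They summed to 1822, 2727 and 1833 in labelled-null SAL and 1844, 1661 and 1626 in labelled-null ASP. The sum therefore varied 2.44-fold over all libraries, and the 4 groups overlap apart from the top library.

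Lce1m stood apart from the other Lce1 genes. It lies beyond the Lce3 genes at chr3:93017807-93019061, shares 0% of its 50-base stretches with a listed gene, and has TATAAA where most Lce1 promoters have AATAAA. It gave 42.3, 64.3 and 75.8 CPM in wild-type SAL, 79.1, 215 and 71.3 in wild-type ASP, 52.9, 100.01 and 60.7 in labelled-null SAL, and 81.1, 118 and 126 in labelled-null ASP. Wild-type ASP replicate 2 is far above the rest. In that library there were 15.1 Lce1m counts per 100 counts of the other Lce1 genes together, against 2.58 to 7.77 in the other 11. Its coefficient of variation over the libraries was 51.4%, against 18.8% to 30.4% for the other Lce1 genes. Its closest member was Krtdap (r = 0.78) and its farthest Casp14 (r = -0.72), over 12 libraries.

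Lce3 transcripts were scarce. In human skin LCE3 genes are known as a group induced by injury and in psoriasis. The 6 Lce3 genes together were counted 91, 7 and 41 times in wild-type SAL, 73, 152 and 1 times in wild-type ASP, 40, 106 and 59 times in labelled-null SAL, and 58, 53 and 46 times in labelled-null ASP. Both the highest and the lowest library belong to wild-type ASP, so that group spans all the others. Lce3c reached 3.63, 0.308 and 1.52 CPM in wild-type SAL and 3.06, 6.81 and 0 in wild-type ASP. It reached 0.639, 4.79 and 2.09 in labelled-null SAL and 2.02, 1.97 and 2.64 in labelled-null ASP. Lce3f reached 1.36, 0.206 and 0.759 CPM in wild-type SAL, 1.40, 4.01 and 0 in wild-type ASP, 0.16, 3.83 and 1.42 in labelled-null SAL, and 1.35, 0.985 and 0.88 in labelled-null ASP. In wild-type ASP replicate 3 a count of 0 allows up to 3 counts, or 0.396 CPM, by counting error alone. Lce3d was counted 33 times in labelled-null SAL replicate 1 and 0 to 7 times in the other 11 libraries, while the other Lce3 genes were counted 0 to 4 times in that library. Lce3 transcripts share 12.1% to 49.3% of their 50-base stretches with another member, so the split among them is uncertain.

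Flg2 and Hrnr gave the highest counts of the list. Flg2 (filaggrin-2) and Hrnr (hornerin) are long repeat proteins made in the granular layer alongside filaggrin, and Rptn (repetin) is a related, smaller protein. Flg2 stood at 4567, 3703 and 3391 CPM in wild-type SAL, 5278, 2493 and 1910 in wild-type ASP, 1901, 6367 and 5051 in labelled-null SAL, and 5464, 5308 and 4185 in labelled-null ASP. The wild-type ASP and labelled-null SAL libraries span nearly the whole range. Hrnr stood at 2684, 1993 and 2201 CPM in wild-type SAL, 2511, 1820 and 1567 in wild-type ASP, 1374, 4343 and 3085 in labelled-null SAL, and 2987, 4783 and 5393 in labelled-null ASP. All 3 labelled-null ASP libraries lie above all 6 wild-type libraries for Hrnr. Rptn was low at 23.2, 11.5 and 7.44 CPM in wild-type SAL, 11, 8.40 and 20.6 in wild-type ASP, 3.35, 26.3 and 25.0 in labelled-null SAL, and 25.7, 24.2 and 18.5 in labelled-null ASP.

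Hrnr and Flg2 did not keep a fixed ratio. Hrnr counts per Flg2 count were 0.588, 0.538 and 0.649 in wild-type SAL, 0.476, 0.73 and 0.82 in wild-type ASP, 0.723, 0.682 and 0.611 in labelled-null SAL, and 0.547, 0.901 and 1.29 in labelled-null ASP. Only in labelled-null ASP replicate 3 was Hrnr counted more often than Flg2. A ratio of counts in 1 library is free of the scaling between libraries. Its spread within wild-type ASP covers the values of both SAL groups. The lowest labelled-null ASP value, 0.547, lies just above the lowest wild-type SAL value, 0.538.

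**Figure D2:**
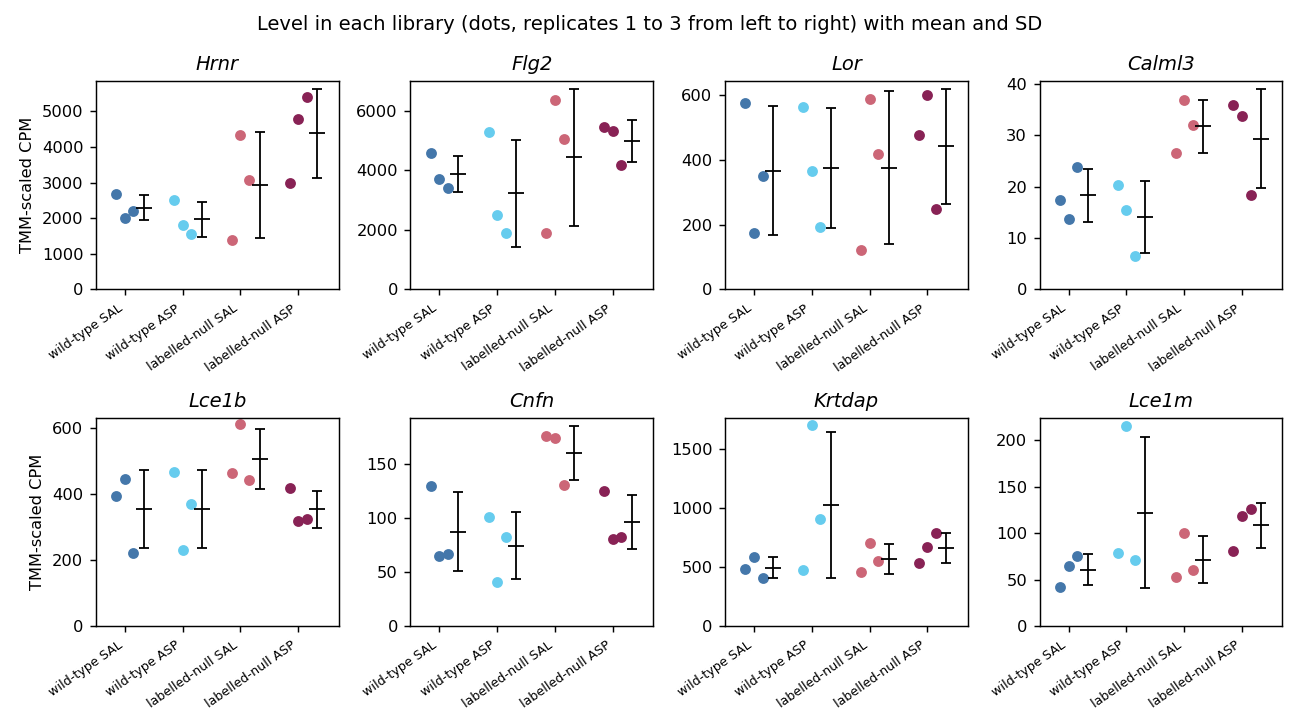
TMM-scaled CPM (y axis, from 0) of 8 genes in the 4 groups, with each dot a library and the bar beside it the mean and SD of 3. Hrnr of labelled-null ASP lies above both wild-type groups, Cnfn of labelled-null SAL above both wild-type groups, and the high mean of Krtdap and Lce1m in wild-type ASP comes with 1 library at 1698 and 215 CPM.

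Of the other precursors, Lor encodes loricrin, the bulk protein of the envelope, and Ivl encodes involucrin, an early scaffold protein. Lor gave 574, 175 and 350.0 CPM in wild-type SAL, 562, 366 and 193 in wild-type ASP, 120.1, 587 and 417 in labelled-null SAL, and 475, 598 and 249 in labelled-null ASP. The 4 groups overlap widely, with means of 366 ± 200.1, 374 ± 185, 375 ± 236 and 441 ± 177 (SD, n = 3 each). Ivl gave 75.8, 55.3 and 36.8 CPM in wild-type SAL, 56.2, 40.6 and 69.6 in wild-type ASP, 40.6, 94.4 and 64.2 in labelled-null SAL, and 69.2, 59.1 and 61.6 in labelled-null ASP. Ivl also overlaps in all groups and varied least of the precursors (coefficient of variation 27.2%).

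Cnfn (cornifelin, an envelope protein) gave 129.9, 65.3 and 67.3 CPM in wild-type SAL, 101, 40.7 and 82.3 in wild-type ASP, 176, 175 and 131 in labelled-null SAL, and 126, 81.1 and 82.5 in labelled-null ASP. Labelled-null SAL lies above the other 3 groups by these values. Calml3, a calmodulin-like protein of keratinocytes, gave 17.4, 13.8 and 23.9 CPM in wild-type SAL, 20.3, 15.4 and 6.47 in wild-type ASP, 26.5, 36.8 and 32.0 in labelled-null SAL, and 36.0, 33.8 and 18.4 in labelled-null ASP. Of the 6 labelled-null libraries, 5 lie above all wild-type libraries for Calml3, and labelled-null ASP replicate 3 lies among them. Kprp, a keratinocyte proline-rich protein, ran from 127 CPM in wild-type ASP replicate 2 to 962 in labelled-null SAL replicate 2. Crct1, a cysteine-rich protein encoded in the complex, gave 23.6, 49.96 and 24.4 CPM in wild-type SAL, 28.1, 56.0 and 61.3 in wild-type ASP, 21.6, 39.5 and 16.9 in labelled-null SAL, and 26.2, 34.9 and 77.0 in labelled-null ASP. The 4 groups overlap for Crct1, and labelled-null ASP replicate 3 is the highest library.

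Among the transglutaminases, Tgm1 joins precursors at the membrane and was the steadiest (coefficient of variation 31.1%). It gave 27.5, 22.2 and 25.5 CPM in wild-type SAL, 32.3, 18.9 and 11.2 in wild-type ASP, 25.6, 39.1 and 26.8 in labelled-null SAL, and 29.5, 43.1 and 25.0 in labelled-null ASP. Tgm3, which also acts in the hair follicle, varied most, from 5.04 CPM in wild-type ASP replicate 2 to 75.1 in labelled-null SAL replicate 1. It stood at 61.6 in wild-type SAL replicate 1, where 6 inner root sheath genes of the hair follicle summed to 404 CPM against 0.396 to 10.5 in the other 11 libraries. In labelled-null SAL replicate 1, with the highest Tgm3, that sum was 3.03, and the part of hair follicles in Tgm3 was not tested further. Evpl and Ppl, the scaffold plakins, ran from 20.4 to 96.0 and from 173 to 522 CPM, and Cdsn, the corneodesmosome adhesion protein, from 135 to 735.

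Casp14, a caspase of cornifying cells that takes part in filaggrin breakdown, gave 148, 91.0 and 62.3 CPM in wild-type SAL, 127, 26.0 and 163 in wild-type ASP, 223, 193 and 154 in labelled-null SAL, and 148, 98.7 and 81.9 in labelled-null ASP. Labelled-null SAL lies above wild-type SAL and above labelled-null ASP without overlap. Asprv1, the aspartic protease that cuts profilaggrin, ran from 64.2 CPM in labelled-null SAL replicate 1 to 795 in labelled-null SAL replicate 2, so 1 group held both extremes. Sbsn (suprabasin), a secreted protein of the suprabasal layers, ran from 86.3 CPM in labelled-null SAL replicate 1 to 1130 in wild-type ASP replicate 1. Krtdap gave 486, 587 and 409 CPM in wild-type SAL, 474, 1698 and 902 in wild-type ASP, 455, 703 and 549 in labelled-null SAL, and 529.8, 672 and 785 in labelled-null ASP. The 2 highest Krtdap libraries are both wild-type ASP, and the third of that group lies within the SAL range.

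In each comparison the 15341 tested genes were fitted together by edgeR's quasi-likelihood test, p-values were adjusted over all of them (Benjamini-Hochberg), and a gene was called at an adjusted p under 0.05. No envelope gene was called in any comparison, by edgeR or by DESeq2. Counts at an unadjusted p under 0.05 are given beside the share of all genes that met the same rule. The comparisons share groups, so their values are not independent of each other.

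In wild-type skin, ASP against SAL gave mixed directions over the envelope genes, with Krtdap and Lce1m at the largest log2 fold changes outside the scarce Lce3 genes. Of the 35 genes 21 were higher and 14 lower, with a median log2 fold change of 0.07, against 0.02 over all genes. None was called (0% of all genes). At an unadjusted p under 0.05, 2 were higher (2.87% of all genes) and 0 lower (1.87%). Krtdap had a log2 fold change of 1.05 ± 0.41 (SE, adjusted p = 0.999 by edgeR), and Lce1m one of 1.00 ± 0.41 (adjusted p = 0.999 by edgeR). Both rest on wild-type ASP replicate 2: without it the log2 fold changes were 0.48 and 0.31, and neither had an unadjusted p under 0.05. Leaving out wild-type SAL replicate 1 (both genes) or 3 (Krtdap) also took the unadjusted p above 0.05, at log2 fold changes of 0.80 to 1.04. Crct1 followed at 0.57 ± 0.46, and stood at 0.38 without wild-type SAL replicate 1, 1.01 without wild-type SAL replicate 2 and 0.36 without wild-type ASP replicate 3. Without wild-type SAL replicate 3 the count of higher genes was 13, and leaving out 1 library at a time moved the median from -0.09 (without wild-type ASP replicate 1) to 0.225 (without wild-type SAL replicate 1). Of the Lce1 genes 11 of 13 were higher (median 0.17), and 0 of 3 filaggrin-type genes (Flg2 -0.27, Hrnr -0.22, Rptn -0.08). For Lor the difference was 0.03, with a 95% interval from -1.05 to 1.10, and for Ivl -0.01 (-0.69 to 0.66). No gene had groups that did not overlap (6.79% of all genes had). In the same comparison 1 of 6 skeletal muscle genes was higher (median -0.91), and their part in the envelope values was not tested.

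Wild-type ASP replicate 2 also differed from the other libraries by transcript length. Over 14566 genes, the Spearman correlation of a gene's deviation from its mean log2 level with its longest annotated transcript was -0.354 in that library and -0.144 to 0.176 in the other 11. Its 674 genes under 1000 bases had a median deviation of 0.80 on the log2 scale, and its 3321 genes over 5000 bases one of -0.21. Of the 19 envelope genes under 1000 bases 6 lay above their own median in that library, namely Krtdap (470 bases), Lce1m (874), Crct1 (718), Lce3c, Lce3e and Lce3f. The other 13 lay below it, among them Cnfn (698 bases), at its lowest of all libraries, Lce1b (647) and Lce1h (706). Of the 16 longer members 0 lay above their median. Counted Krtdap per Kprp was 13.3 there and 0.668 to 3.30 elsewhere. The part of transcript length in the Krtdap and Lce1m values was not tested.

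**Figure D3:**
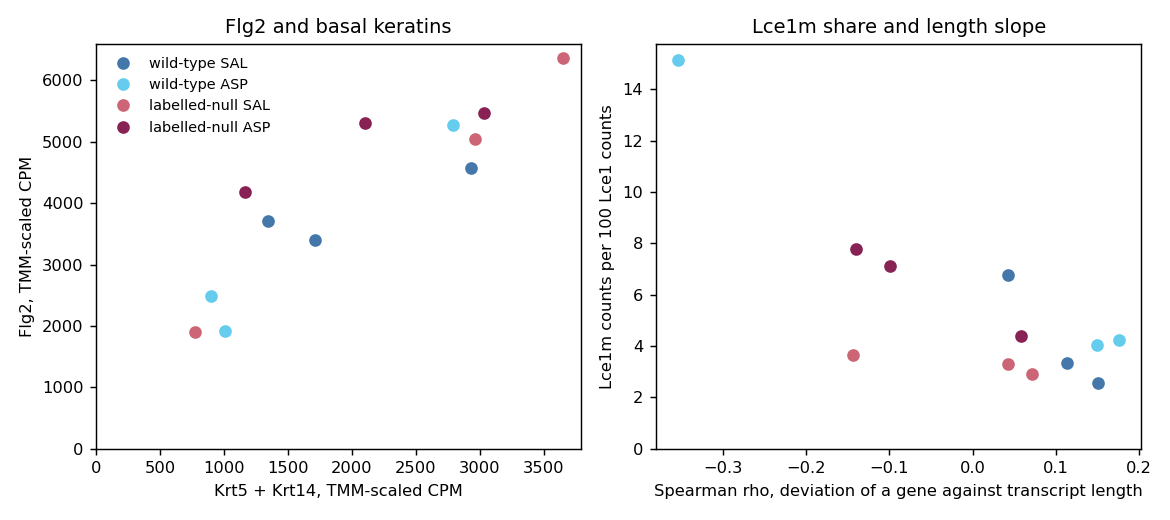
Left, Flg2 against the sum of Krt5 and Krt14, both in TMM-scaled CPM, with 1 point per library coloured by group. Right, Lce1m counts per 100 counts of the other Lce1 genes, against the Spearman correlation of gene deviation with transcript length. Lce1 counts on that axis leave out Lce1m. Flg2 is lowest in the 3 libraries with the least Krt5 and Krt14 (r = 0.90 over 12 libraries), and the library at 15.1 Lce1m counts per 100 is also the one at -0.354.

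In labelled-null skin, ASP against SAL gave lower values for most Lce genes and higher ones for the filaggrin type, none of them called (0% of all genes). Of the 35 genes 11 were higher and 24 lower, with a median log2 fold change of -0.19, against -0.01 over all genes. At an unadjusted p under 0.05, 0 were higher (1.54% of all genes) and 0 lower (2.97%). The smallest p belonged to Cnfn at -0.74 ± 0.36, Crct1 at 0.82 ± 0.46 and Casp14 at -0.80 ± 0.49, all with an adjusted p of 0.989 by edgeR. Crct1 stood at 0.24 without labelled-null ASP replicate 3 and at 1.25 without labelled-null SAL replicate 2. Of the Lce1 genes 2 of 13 were higher (median -0.28), and the 3 filaggrin-type genes were all higher, Hrnr by 0.58 ± 0.44, Rptn by 0.32 ± 0.58 and Flg2 by 0.17 ± 0.49. Lce1a2, Lce1b, Lce1g, Cnfn and Casp14 were lower in all 3 ASP libraries than in all 3 SAL libraries, and 10.5% of all genes had such groups in either direction. The count of higher genes was 21 (median 0.09) without labelled-null SAL replicate 2 and 4 (median -0.38) without labelled-null SAL replicate 1. The median was -0.315 without labelled-null SAL replicate 3 and -0.09 without labelled-null ASP replicate 3.

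Under SAL, labelled-null against wild type, 34 of the 35 genes were higher, and Crct1 was the exception. The median log2 fold change was 0.40, against 0.01 over all genes. None was called (0% of all genes), and at an unadjusted p under 0.05 there was 1 higher gene (2.21% of all genes) and 0 lower (2.16%). That gene was Cnfn, at 161 ± 25.4 against 87.5 ± 36.7 CPM (SD, n = 3 each), a log2 fold change of 0.88 ± 0.37 (adjusted p = 1 by edgeR). Leaving out 1 library at a time gave 0.70 to 1.27 for Cnfn, and the unadjusted p was no longer under 0.05 without wild-type SAL replicate 2 or 3 or labelled-null SAL replicate 1 or 2. Calml3 followed at 0.79 ± 0.40 and Lce1a2 at 0.55 ± 0.28, the latter at 0.36 without either wild-type SAL replicate 3 or labelled-null SAL replicate 2. Casp14 stood at 0.92 ± 0.49 and Asprv1 at 0.83 ± 0.63. Lce1a2, Cnfn, Calml3 and Casp14 were higher in all 3 labelled-null libraries than in all 3 wild-type libraries, and 8.06% of all genes had groups without overlap. Both the count of 34 and the median rest on labelled-null SAL replicate 2, the highest library for 19 of the 35 genes. Without it 21 of 35 were higher and the median was 0.04. That library also had the highest sum of Krt5 and Krt14 (3649 CPM). Genes of other skin cells also differed in direction under SAL. All 5 sebaceous gland genes had higher values in labelled-null skin (median 0.58, 1 of them at an unadjusted p under 0.05), with sums of 2853 to 5702 CPM against 2791 to 4749. Of 6 skeletal muscle genes 0 were higher (median -0.40), with sums of 36413 to 42578 CPM against 23425 to 92568. None of these sebaceous gland and skeletal muscle genes was at 0 in any library. Of the lists nearer to the envelope set, 15 of 19 processing and lipid attachment genes were higher (median 0.25). The same held for 5 of 6 basal keratinocyte genes (0.16), 4 of 6 genes of stressed epidermis (0.32) and 2 of 3 suprabasal keratins (0.02). The part of these lists in the envelope values was not tested.

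Under ASP, labelled-null against wild type, the Lce1 genes were split in direction while the 3 filaggrin-type genes all had positive values. Of the Lce1 genes 7 of 13 were higher, with log2 fold changes from -0.17 to 0.45, and the interval for Lce1b ran from -0.69 to 0.68 around -0.01. Hrnr averaged 4388 ± 1251 against 1966 ± 489 CPM (SD, n = 3 each), a log2 fold change of 1.16 ± 0.44 (adjusted p = 0.999 by edgeR). Rptn stood at 0.78 ± 0.58 and Flg2 at 0.63 ± 0.49. Calml3 averaged 29.4 ± 9.59 against 14.04 ± 6.99 CPM, a log2 fold change of 1.06 ± 0.40 (adjusted p = 0.999 by edgeR), and Tgm1 stood at 0.64 ± 0.37. Tgm1 was 1.12 without wild-type ASP replicate 1, 0.35 without wild-type ASP replicate 3 and 0.39 without labelled-null ASP replicate 2. None was called (0% of all genes). Hrnr and Calml3 were the 2 genes higher at an unadjusted p under 0.05 (0.906% of all genes), and 0 were lower (2.16%). Over the 35 genes 21 were higher and the median was 0.05, against -0.04 over all genes. Hrnr and Lce1l had groups without overlap (7.62% of all genes). Leaving out 1 library at a time, the log2 fold change ran from 0.99 to 1.38 for Hrnr and from 0.72 to 1.42 for Calml3. Hrnr no longer had an unadjusted p under 0.05 without replicate 3 of either genotype, nor had Calml3 without wild-type ASP replicate 3 or labelled-null ASP replicate 1 or 2. The sum of Krt1 and Krt10 moved with Hrnr (r = 0.79 over 12 libraries), at 5542, 9200 and 5251 CPM in labelled-null ASP and 5568, 2295 and 3386 in wild-type ASP, and its part in the Hrnr value was not tested. The median of 0.05 ran from -0.02 without labelled-null ASP replicate 1 to 0.215 without wild-type ASP replicate 1. Under ASP 5 of 5 sebaceous gland genes had higher values in labelled-null skin (median 0.62), and 0 of 5 adipocyte (median -0.67) and 0 of 5 fibroblast genes (median -0.22) had. Higher values were also found in 3 of 3 suprabasal keratins (median 0.74) and 5 of 6 basal keratinocyte genes (0.35). The same held for 13 of 19 processing and lipid attachment genes (0.26) and 4 of 6 genes of stressed epidermis (0.49). The part of these lists was not tested.

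**Figure D4:**
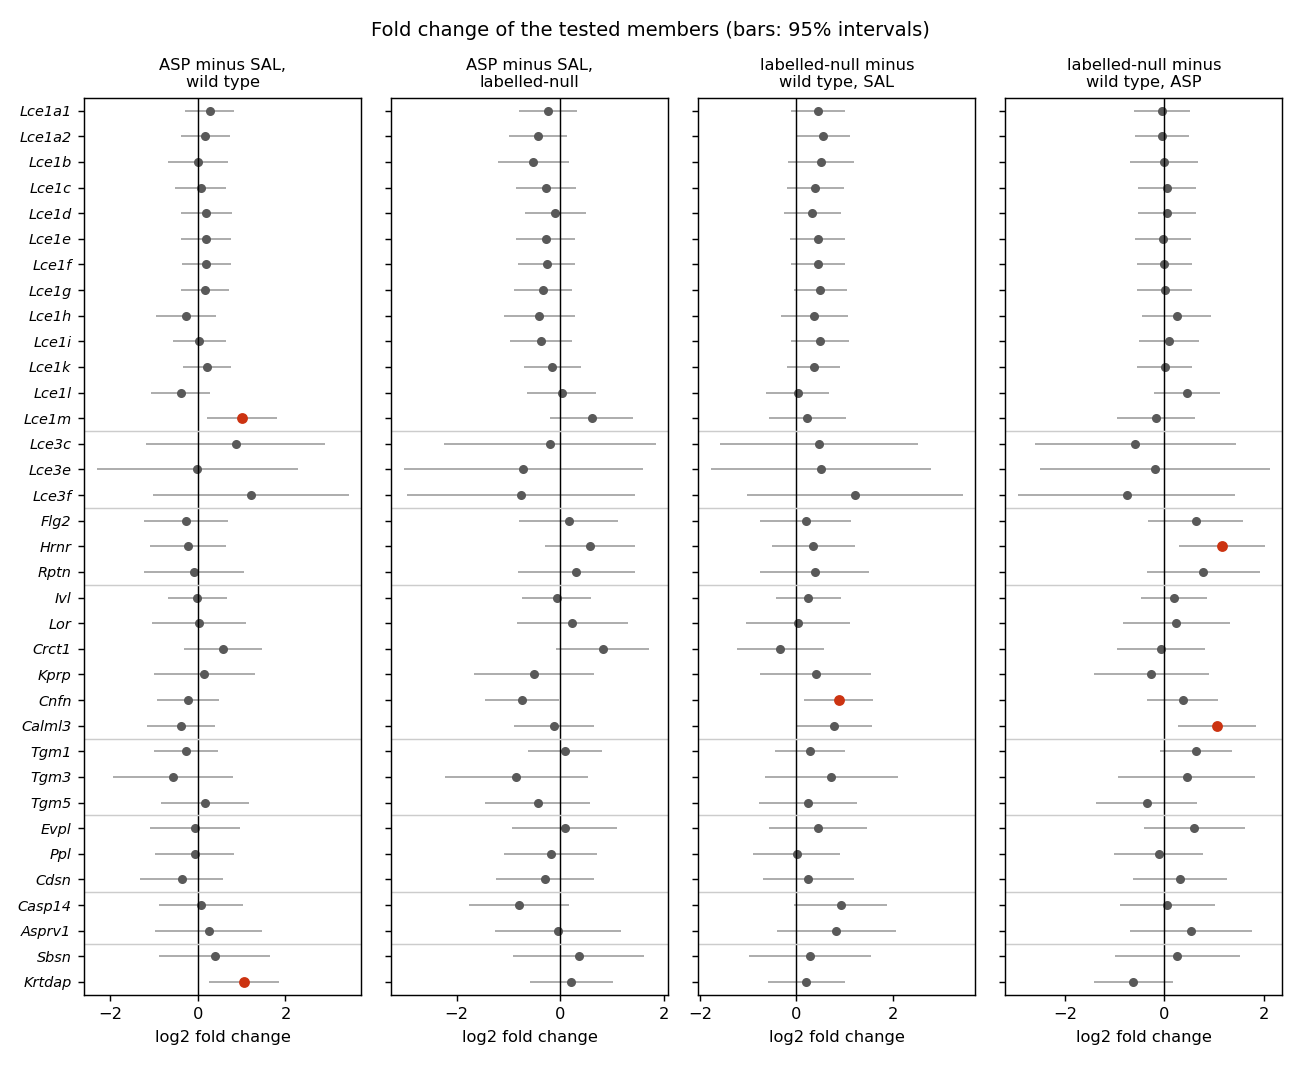
Log2 fold changes (x axis) of the 35 tested genes in 4 comparisons, in blocks by role, with bars of 95% intervals and red dots where the unadjusted p is under 0.05. The bars are 1.96 SE to either side by the normal distribution, while p comes from the quasi-likelihood test. A bar can therefore leave out 0 where the dot is not red, as for Cnfn in labelled-null ASP against SAL and Calml3 under SAL. Under SAL 34 of the 35 dots lie to the right of 0, under ASP Hrnr and Calml3 are the red ones, and no gene passed the adjusted threshold.

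The difference between the ASP responses of the genotypes was tested as an interaction. Of the 35 genes 10 had a positive and 25 a negative value (median -0.35, against -0.06 over all genes), none was called (0% of all genes), and 0 passed an unadjusted p under 0.05 in the positive (1.48% of all genes) or the negative direction (2.33%). The filaggrin-type genes were positive in 3 of 3 (median 0.44, with Hrnr at 0.80 ± 0.62). Values were negative in 12 of 13 Lce1 genes (median -0.41, with Lce1a2 at -0.60 ± 0.40), in 3 of 3 Lce3 genes (median -1.05), in both proteases (median -0.58) and in both secreted genes (median -0.43, with Krtdap at -0.84 ± 0.57). The other precursors, the plakin group and the transglutaminases were split. Krtdap stood at -0.26 without wild-type ASP replicate 2, and Hrnr at 0.46 without labelled-null SAL replicate 1. Without labelled-null SAL replicate 2, 17 of 35 were positive and the median was -0.09, and without wild-type SAL replicate 1, 6 were. The median was -0.19 without wild-type SAL replicate 3 and -0.195 without wild-type ASP replicate 1.

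Averaged over the treatments, labelled-null against wild type gave 30 of 35 genes higher (median 0.24, against -0.02 over all genes). Without labelled-null SAL replicate 2, 25 were higher and the median was 0.105, and without wild-type SAL replicate 3 the median was 0.14. All 5 sebaceous gland genes were higher on this average too (median 0.60), 4 of them at an unadjusted p under 0.05. So were 17 of 19 processing and lipid attachment genes (median 0.26) and 6 of 6 basal keratinocyte genes (0.17). The same held for 6 of 6 genes of stressed epidermis (0.38) and 3 of 3 suprabasal keratins (0.48). Of the skeletal muscle, adipocyte and fibroblast genes 1 of 6, 1 of 5 and 1 of 5 were higher. The part of these lists in the envelope values was not tested. None of the 35 was called, and 0.00652% of all genes were. At an unadjusted p under 0.05, 3 were higher (1.69% of all genes) and 0 lower (2.05%). They were Calml3 at 0.92 ± 0.28, Hrnr at 0.76 ± 0.31 and Cnfn at 0.62 ± 0.26, each with an adjusted p of 1.00 by edgeR. Calml3 kept an unadjusted p under 0.05 whichever library was left out, with log2 fold changes from 0.76 to 1.11. Hrnr (0.56 to 0.93) and Cnfn (0.47 to 0.82) each lost it when any 1 of 6 libraries was left out. Averaged over the genotypes, ASP against SAL gave 14 of 35 higher (median -0.05, against -0.01), with none called (0% of all genes). Here 3 were higher at an unadjusted p under 0.05 (3% of all genes) and 0 lower (2.64%), namely Lce1m at 0.81 ± 0.29, Krtdap at 0.64 ± 0.29 and Crct1 at 0.70 ± 0.32, each with an adjusted p of 0.864 by edgeR. Without wild-type ASP replicate 2, Lce1m stood at 0.46 and Krtdap at 0.35, and without labelled-null ASP replicate 3 Crct1 stood at 0.40, none of them with an unadjusted p under 0.05. Krtdap and Crct1 each lost it when any 1 of 7 libraries was left out. The count of 14 was 6 without labelled-null SAL replicate 1, 9 without wild-type ASP replicate 1 and 24 without labelled-null SAL replicate 2, and the median then ran from -0.17 to 0.07.

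Several envelope genes followed the basal keratins across the libraries. Evpl (r = 0.92), Cdsn (0.90), Flg2 (0.90), Ppl (0.87), Asprv1 (0.83), Lor (0.83) and Sbsn (0.80) correlated with the sum of Krt5 and Krt14 over the 12 libraries, while the Lce1 genes other than Lce1m lay between 0.24 and 0.62. Krtdap, Crct1 and Lce1m had negative values (-0.43, -0.49 and -0.24). All values share a library and its scaling factor, and they are given as a description. Labelled-null SAL replicate 1 had the least Krt5 and Krt14 (778 CPM). It was the lowest library for 8 genes, among them Flg2, Hrnr, Rptn, Lor and Sbsn. Yet its sum of 1822 CPM over the Lce1 genes other than Lce1m lay in the middle of the range. Its Casp14, Cnfn and Tgm3 were the highest of all libraries. Scaling the counts to Krt5 and Krt14 in place of TMM moved all genes, to a median log2 fold change of 0.56 for ASP against SAL in wild type and of -0.60 for labelled-null against wild type under ASP. On that scale 33 of 35 genes were higher under ASP in wild type (median 0.61), beside 86.3% of all genes. In labelled-null against wild type under ASP 7 of 35 were higher (median -0.47), beside 11.6% of all genes. The counts of higher genes in these comparisons therefore depend on the reference chosen, and the set moved together with all genes. Hrnr under ASP was then 0.82 and Calml3 0.51, neither with an unadjusted p under 0.05.

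The genes that act on the envelope were counted from lists outside the 40. Of 17 tested regulators, such as Klf4, Grhl3 and Zfp750, transcription factors of keratinocyte differentiation, 0 were called and 0 passed an unadjusted p under 0.05 in any of the 7 comparisons. Of 19 tested genes for processing and lipid attachment, 0 were called. Under ASP, Capn1 (calpain-1, 0.77 ± 0.32) and Blmh (bleomycin hydrolase, which breaks down filaggrin peptides, 0.70 ± 0.31) stood higher in labelled-null skin at an unadjusted p under 0.05. They were 2 of the 19, beside 0.906% of all genes, and each had an adjusted p of 0.999 by edgeR. Tmprss13, a membrane serine protease, averaged 39.0 CPM in labelled-null SAL against 14.7 in wild-type SAL (log2 fold change 1.41 ± 0.48, adjusted p = 1 by edgeR). Krt1 was higher under ASP in labelled-null skin by 1.07 ± 0.50 (adjusted p = 0.999 by edgeR). Of 8 other tested genes of the complex, Lce6a was higher under ASP in wild type by 1.32 ± 0.45 (adjusted p = 0.999 by edgeR), at 13.4 against 5.34 CPM. Tchh (trichohyalin, a filaggrin-type gene of the hair follicle) had a log2 fold change of -5.81 ± 1.39 there (adjusted p = 0.999 by edgeR). Its mean in wild-type SAL was 65.5 CPM. The inner root sheath sum of 404 CPM in wild-type SAL replicate 1 includes Tchh itself, so the 2 values are not independent.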

How the data were processed

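The authors deposited raw counts by Entrez Gene ID in 18 columns, of which 12 match labelled samples. The remaining 6 match none and were left out. Software named in the submitters' processing notes was bcl2fastq, CASAVA 1.8, TopHat and DESeq, with the build mm10. Neither the counting program nor its strand setting is given in the sources used here, so overlapping or antisense genes may share reads. Symbols came from RefSeq (GRCm38.p6, 23372 of 23469 IDs), promoter sequences from the same source, and transcript lengths from GENCODE M21. After filterByExpr and TMM scaling, with factors from 0.647 to 1.28, genes were tested by the quasi-likelihood method of edgeR 4.0.16 (robust, common dispersion 0.182, 1 coefficient per group, 12 libraries, R 4.3.3). The same fit was also run on simulated data with large changes and a smaller dispersion. That run checks the code and not the power to find small changes. Levels are TMM-scaled CPM, and standard errors come from the fit. The 95% intervals are 1.96 standard errors to either side by the normal distribution. They are approximate and can leave out 0 where the unadjusted p is above 0.05. Alternatives were DESeq2 1.42.0, other scalings, no filter, a replicate block and leaving out libraries. Same-numbered libraries gave correlations from -0.211 to 0.157 in 18 pairs, and the numbers were not taken as pairs. Replicates differed by more than sampling noise. Values in every library were given for named genes of each role other than the plakin group, the 2 Lce1 and 2 Lce3 genes with the highest mean count, and the 3 genes with the smallest p per comparison. The member genes, lists and rule were chosen with earlier results of these data known. Floors of 3 counts cover counting error only.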

Additional observations from a re-analysis of the deposited data

How the results depend on the processing

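No envelope gene was called in any of the 7 comparisons under any of the 19 alternatives, and the 21 log2 fold changes of the 3 genes with the smallest p in each comparison kept their sign and their side of the adjusted threshold in all 399 refits. Comparisons are listed below as ASP against SAL in wild type and in labelled-null skin, labelled-null against wild type under ASP and under SAL, the interaction, the genotype average and the ASP average. Scaled to Krt5 and Krt14, the genes called among all genes were 11, 9, 11, 6, 8, 3 and 2. Envelope genes counted higher were then 33 in wild type under ASP, 7 for labelled-null under ASP and 4 for the interaction. They were 15 for the genotype average and 27 for the ASP average. Of all genes 86.3%, 11.6%, 17.6%, 26.0% and 67.1% were higher in these 5 comparisons, so the scaling moved the whole table. Envelope medians were 0.614, -0.472 and -0.916 in the first 3 of these, against 0.561, -0.602 and -0.745 over all genes. DESeq2 called 2, 2, 5, 6, 1 and 8 genes in the first 6 comparisons. For the genotype average, 2 genes were called without the filter on low counts and 0 with the replicate block, which changed no call on an envelope gene. The 2 libraries left out together, chosen with the earlier results known, gave 1 called gene for ASP in wild type, 0 for the genotype average, and 4 and 5 envelope genes higher for ASP in labelled-null skin and for the interaction. Leaving out 1 library at a time gave 0 to 2 called genes for the genotype average. The envelope genes counted higher, a summary added after the data had been seen, then ran from 13 to 28 for ASP in wild type, 4 to 21 for ASP in labelled-null skin, 15 to 28 for labelled-null against wild type under ASP, 21 to 34 under SAL, 6 to 17 for the interaction, 25 to 33 for the genotype average and 6 to 24 for the ASP average, and the median under SAL from 0.0396 to 0.555. The cause of these shifts was not tested. With 3 libraries a group and a common dispersion of 0.182, changes in the scarce Lce3 genes had wide standard errors. They were above 1 on the log2 scale except in the genotype and ASP averages, where they ran from 0.73 to 0.83.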
